A study of Oryza sativa with 4 samples.

Results

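In rice paleas, 190 of the 55986 genes measured were at least 4-fold higher in the library labelled Osmads6 than in any of the other 3 libraries. Only 18 of them could be given a symbol, 17 of these after the list had been seen. These 18 included some expansin and other cell wall genes, lipid transfer protein genes, an epidermal homeobox gene and metallothionein genes. They do not describe the 172 genes without a symbol. The 190 genes were chosen by their values. A gene was kept where its 4 genotype means averaged 1 FPKM or more, which left 20675 genes. FPKM is a read level corrected for gene length and for sequencing depth. A gene was taken where log2 of (Osmads6 FPKM + 1) over (highest other FPKM + 1), called the gap here, was at least 2. This gave 0.919% of the genes kept. As the gap chose the genes, their height in Osmads6 is a description and not a finding. The number depends on the rule's settings: it was 297 with a pseudocount of 0.1 in place of 1, and 121 at a minimum mean of 5 FPKM.

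The rice flower sits between a pair of bracts, the palea on the inner side and the lemma on the outer. The body of the palea resembles the lemma, while its margins are smooth and specialised. OsMADS6 is an AGL6-like MADS-box transcription factor of floral organ and meristem identity, OsMADS32 is a MADS-box factor of floral patterning found in grasses, and REP1 is a TCP factor needed for the palea body. Palea cells expand by loosening their walls, and the outer cell layer is covered by a lipid-rich cuticle.

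Paleas of field-grown plants were profiled by bulk RNA sequencing of enriched messenger RNA. The libraries were labelled Osmads6 (Nipponbare, a mutant with a Tos17 retrotransposon insertion), Osmads32 (AF36, a mutant with a T-DNA insertion), rep1 (japonica, a deletion mutant) and wild type (WT; japonica). GEO lists 1 sample per genotype, so n = 1, and the 2 columns of each are treated as runs of that sample. No difference below has a replicate check, and no test was made. Genotype and background cannot be told apart, and the developmental stage was not given in the sources used here. In such bulk samples, fewer cells of a type and less RNA per cell cannot be told apart either.

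Depth was 35788413 to 52070410 reads per run. The level of OsMADS6 (LOC_Os02g45770) went against the labels: it was 124 and 129.8 FPKM in the runs of the library labelled Osmads6, 257 and 267 in Osmads32, 826 and 858 in rep1, and 12.5 and 14.4 in the library labelled WT. It was therefore lowest in the library labelled WT. OsMADS32 (LOC_Os01g52680) was 14.6 and 15.3 FPKM in Osmads6, 8.69 and 7.95 in Osmads32, 3.11 and 2.44 in rep1, and 6.63 and 7.75 in WT. It was thus not lower in the library labelled Osmads32 than in WT, and it was lowest in rep1. REP1 (LOC_Os09g24480) was at 11 reads or fewer in every run and checks no label. The position of these reads along the gene is not given in the table, so each genotype name here means the library with that label. The rule applied with WT in the place of Osmads6 gave 20 genes (0.0967% of those kept), with rep1 128 (0.619%) and with Osmads32 7 (0.0339%).

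Tissue markers differed between the libraries. All 5 palea and lemma markers (OsMADS1, 5, 14, 15 and 34) were at 1 FPKM or more in every library, and their summed level was 654 FPKM in Osmads6, 571 in Osmads32, 362 in rep1 and 826 in WT. The 3 lodicule markers summed to 50.4 FPKM in Osmads6, 134 in Osmads32, 171 in rep1 and 82.2 in WT. For 4 stamen and carpel markers the sums were 1.57 FPKM in Osmads6, 34.1 in Osmads32, 27.3 in rep1 and 5.81 in WT. The 10 anther and tapetum markers summed to 30.2 FPKM in Osmads6, 216 in Osmads32, 316 in rep1 and 263 in WT, with RTS at 0 in both Osmads6 runs. This sum is carried by a few abundant genes: Osmads6 was the lowest library in 5 of the 10 and the highest in 2, the tapetum regulators TDR (4.50 FPKM in Osmads6, 1.03 in Osmads32, 0.896 in rep1 and 1.08 in WT) and TIP2. In all 3 lodicule and all 4 stamen and carpel markers Osmads6 was the lowest. Of the stamen and carpel markers, only 1 reached 1 FPKM in Osmads6 and only 1 in WT, so part of that order rests on few reads.

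The remaining markers did not share 1 order. DL, a marker of the carpel and the lemma midrib, stood at 19.6 FPKM in Osmads6, 55.6 in Osmads32, 0.499 in rep1 and 19.1 in WT, so it was lowest in rep1, as most of the 190 genes were. The 4 endosperm markers summed to 2.73 FPKM in Osmads6, 6.43 in Osmads32, 4.64 in rep1 and 2.55 in WT. The 4 inflorescence meristem markers summed to 0.276 FPKM in Osmads6, 2.08 in Osmads32, 3.83 in rep1 and 0.713 in WT. Osmads6 was the lowest library in all 4. At most 1 of the 4 reached 1 FPKM in any library, so this order rests on few reads. None of these markers is among the 190. Their part in the results was not tested.

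The gap of the 190 genes ran from 2.0 to 7.84 with a median of 2.495. In the plot of Osmads6 against the highest other library, they form a fringe along the 4-fold line with a few genes far above it. Just inside the threshold, 21 genes had a gap of 2.0 to 2.1, and just outside it 30 had a gap of 1.9 to 2.0. Both Osmads6 runs lay above all 6 other runs in 190 of the 190, against 23.4% of all genes kept, an order that the rule nearly forces. The lowest Osmads6 run was at least 4-fold above the highest other run in 141 of them. The Osmads6 runs differed from each other by a median of 0.14 on the log2 scale over the 190 genes, and by 0.79 at most.

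**Figure D1:**
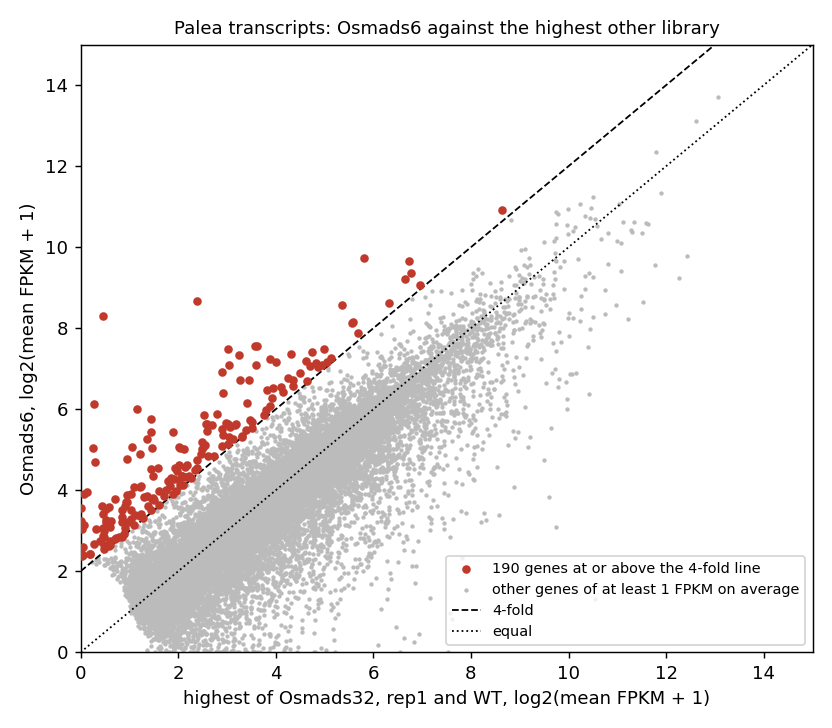
Mean level of each of 20675 genes in Osmads6 (vertical axis) against the highest of Osmads32, rep1 and WT (horizontal axis), both as log2(FPKM + 1). Red points are the 190 genes at or above the dashed 4-fold line, and the dotted line marks equal levels.

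The genes were moderately expressed in Osmads6, with a median of 25.4 FPKM, quartiles of 11.2 and 65.9 FPKM and a range from 4.16 to 1918 FPKM. Of the 190, 149 reached 10 FPKM there and 38 reached 100 FPKM. Median levels elsewhere were 2.33 FPKM in Osmads32, 0.673 in rep1 and 2.34 in WT. Together they held 2.53% and 2.61% of the summed FPKM of the Osmads6 runs. The share was 0.288% and 0.299% in Osmads32, 0.0932% and 0.0905% in rep1, and 0.337% and 0.297% in WT. By this sum the rep1 runs were the lowest, and the Osmads32 and WT runs overlapped.

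How far the genes were expressed outside Osmads6 varied. In 52 genes the highest other library was below 1 FPKM, in 96 it was 1 to 10 FPKM and in 42 it was 10 FPKM or more. The median in Osmads6 was 7.64 FPKM in the first class, 26.8 in the second and 141 in the third. At most 3 reads were found in each of the 6 other runs for 9 genes, against 0.0532% of all genes kept. The rule and the filter on low values nearly fix this, since a gene without reads elsewhere is kept only through its Osmads6 level, so nothing is read from the contrast. No read in any other run was found for 2 genes. A count of 0 allows up to 3 reads, and this limit covers counting error only. The heat map by run shows these classes from top to bottom.

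**Figure D2:**
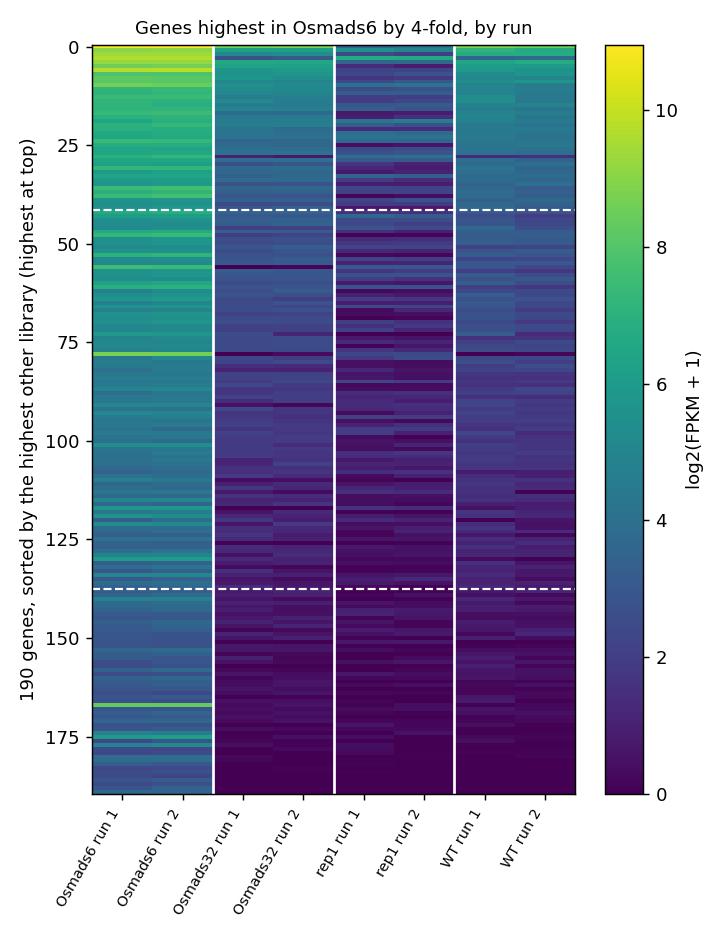
Levels of the 190 genes (rows) in the 8 runs (columns, Osmads6 at the left and WT at the right), as log2(FPKM + 1), sorted by the level in the highest other library. White dashed lines part the 42 genes at 10 FPKM or more elsewhere, the 96 at 1 to 10 FPKM and the 52 below 1 FPKM. The rep1 columns are darker than the Osmads32 and WT columns in the upper 2 classes.

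Among the other 3 libraries, rep1 was the low one. The rule used them only through whichever was highest, so their order was not set by it directly. Of the 190 genes, rep1 was the lowest in 147 (77.4%), Osmads32 in 23 and WT in 20. The highest of them was Osmads32 in 87 genes (45.8%), WT in 83 (43.7%) and rep1 in 20 (10.5%). Over all genes kept, rep1 was the lowest of the 3 in 48.7%. Over the 7368 genes highest in Osmads6 by any amount (35.6% of those kept), it was the lowest in 64.8%. Over 729 genes at 2-fold to 4-fold in Osmads6, it was the lowest in 72.4%. Among the 7368 genes, Osmads32 was the highest of the 3 in 44.4%, WT in 39.0% and rep1 in 16.7%. Over all genes kept these shares were 34.2%, 36.0% and 29.8%. The Osmads32 share of the 190 was thus near that of the 7368 genes.

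Set against WT, the 190 genes had a median log2 ratio of -0.62 in rep1 (quartiles -1.48 and -0.09), beside -0.15 over all genes kept and -0.28 over the genes highest in Osmads6. With a pseudocount of 0.1 the median of the genes then chosen was -1.09, and at a minimum mean of 5 FPKM it was -1.14. At least 2-fold lower in rep1 than in WT were 68 of the 190 (35.8%), against 8.78% of all genes kept and 12.5% of the genes highest in Osmads6. At least 2-fold higher were 4 (2.11%), against 5.13% of all genes kept and 0.733% of the genes highest in Osmads6. This share, from 4 genes, was thus below the first background and above the second. Genes that missed the threshold shared the order: of 729 genes at 2-fold to 4-fold in Osmads6, 219 (30.0%) were at least 2-fold lower in rep1. Both rep1 runs lay below all Osmads32 and WT runs in 111 of the 190 genes (58.4%). The share was 31.3% of all genes kept, 43.6% of the genes highest in Osmads6 and 55.4% of the 729 genes. The low rep1 level was thus not particular to the 190.

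Osmads32 had a median close to that of WT. The median log2 ratio of the 190 genes was -0.004 in Osmads32 against WT (quartiles -0.33 and 0.21), beside -0.03 over all genes kept. In Osmads32, 2 genes were at least 2-fold higher than in WT and 11 lower, or 1.05% and 5.79%, against 1.81% and 3.34% of all genes kept and 0.828% and 1.48% of the genes highest in Osmads6. The share of lower genes was thus above both backgrounds. The plot of the ratios to WT shows the rep1 curve of the 190 genes moved to the left and the Osmads32 curve over the others. All ratios to WT in this section share the WT library.

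**Figure D3:**
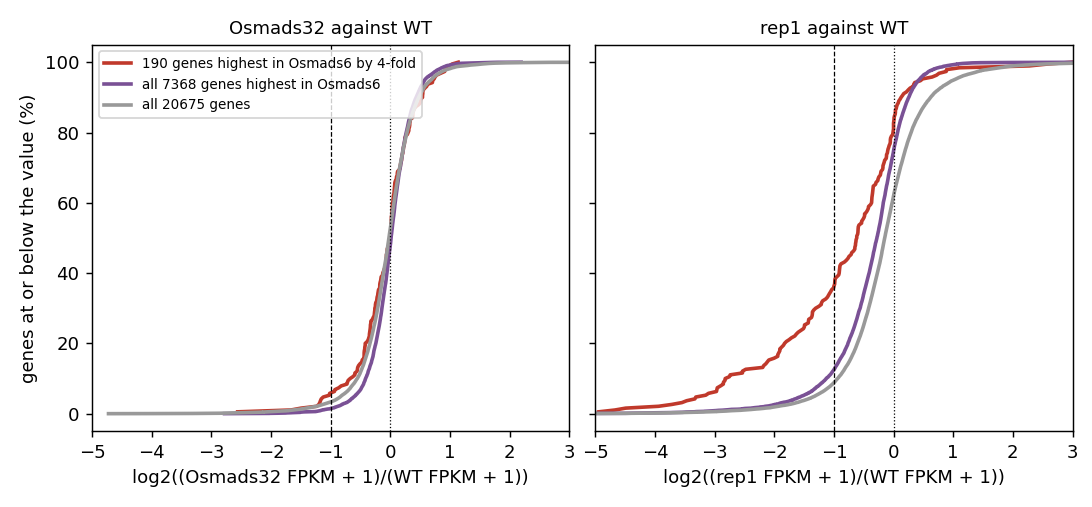
Cumulative share of genes by log2 ratio to WT, for Osmads32 (left panel) and rep1 (right panel), from FPKM + 1. The 190 genes are drawn in red, the 7368 genes highest in Osmads6 in purple and all 20675 genes in grey; the dashed line marks 2-fold lower. In the right panel 35.8% of the red curve lies at or left of that line.

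The lower rep1 level was found where the genes were expressed outside Osmads6. Of the 42 genes at 10 FPKM or more elsewhere, 32 (76.2%) were at least 2-fold lower in rep1 than in WT, with a median log2 ratio of -2.13. The other 3189 genes highest in Osmads6 at that level had a median of -0.34, and 16.3% of them were at least 2-fold lower. Of the 96 genes at 1 to 10 FPKM, 36 (37.5%) were lower, against 8.53% of 3870 other genes of that level, and the medians were -0.78 and -0.23. The 52 genes below 1 FPKM cannot reach 2-fold with a pseudocount of 1, and rep1 was the lowest of the other libraries in 30 of them (57.7%), near the 53.8% of other genes of that level.

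The table does not name genes, and 18 of the 190 could be given a symbol. The 17 besides ROC8 were paired after the list had been seen, so the themes among them are a description and not an enrichment. The plot of the 18 by run shows that in each of them both Osmads6 runs were above all other runs. Their Osmads6 levels ran from 5.13 to 142 FPKM. Below 1 FPKM were 11 of them in Osmads32, 13 in rep1 and 10 in WT.

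Cell wall genes made up 5 of the 18, all of them paired after the list was seen. A separate list of cell wall and lignin genes, which holds no expansin gene, had 25 genes kept. None was among the 190 and 1 had a gap of at least 1, against 0.919% and 4.44% of all genes kept. Nothing is read from these counts, which are near those shares. The median gap of the list was -1.25, beside -0.20 over all genes kept, so the 5 do not stand for the genes of that list. Expansins loosen the wall so that cells can expand. EXPB16 (LOC_Os02g42650), a beta-expansin gene, had 46.3 and 50.5 FPKM in Osmads6, 3.39 and 3.61 in Osmads32, 0.275 and 0.363 in rep1, and 5.73 and 4.34 in WT. Its 4 libraries did not overlap, with rep1 the lowest, and the Osmads6 mean was 9.61-fold that of WT. EXPB17 (LOC_Os04g44780), another beta-expansin gene, had 20.5 and 22.1 FPKM in Osmads6, 3.29 and 2.54 in Osmads32, 1.04 and 1.91 in rep1, and 2.099 and 2.16 in WT. Osmads32 stood just above WT and rep1 just below it, without overlap of runs, and the Osmads6 mean was 7.32-fold that of Osmads32.

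EXPA6 (LOC_Os03g21820), an alpha-expansin gene, had 13.7 and 13.97 FPKM in Osmads6, 0.930 and 0.908 in Osmads32, 0.514 and 0.272 in rep1, and 0.720 and 0.209 in WT. It was below 1 FPKM in every run outside Osmads6, and the runs of rep1 and WT overlapped. A separate list of 9 other expansin genes had 8 genes kept. None had a gap of 2 and 1 had a gap of at least 1, against 0.919% and 4.44% of all genes kept. So few genes do not allow these counts to be read. Osmads6 was the highest library in 3 of those 8, against 35.6% of all genes kept. The median gap of the 8 was -0.43, beside -0.20 over all genes kept. High Osmads6 levels were found in some expansin genes and not across the list.

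OsCel9E (LOC_Os02g50040) encodes an endoglucanase, an enzyme that cuts beta-glucan chains of the wall. It had 17.2 and 19.4 FPKM in Osmads6, 2.86 and 2.69 in Osmads32, 0.247 and 0.0522 in rep1, and 2.62 and 1.92 in WT. The order of the libraries was that of EXPB16 save that Osmads32 was above WT, and 20 and 4 reads stood behind the rep1 values. BURP16 (LOC_Os10g26940), of the BURP-domain family of wall proteins, had 26.04 and 23.6 FPKM in Osmads6, 0 and 0 in Osmads32, 0.0210 and 0.445 in rep1, and 0 and 0.0343 in WT. It was thus read almost only in Osmads6, from 1164 and 1156 reads, while the largest count in another run was 20 reads in rep1 run 2.

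**Figure D4:**
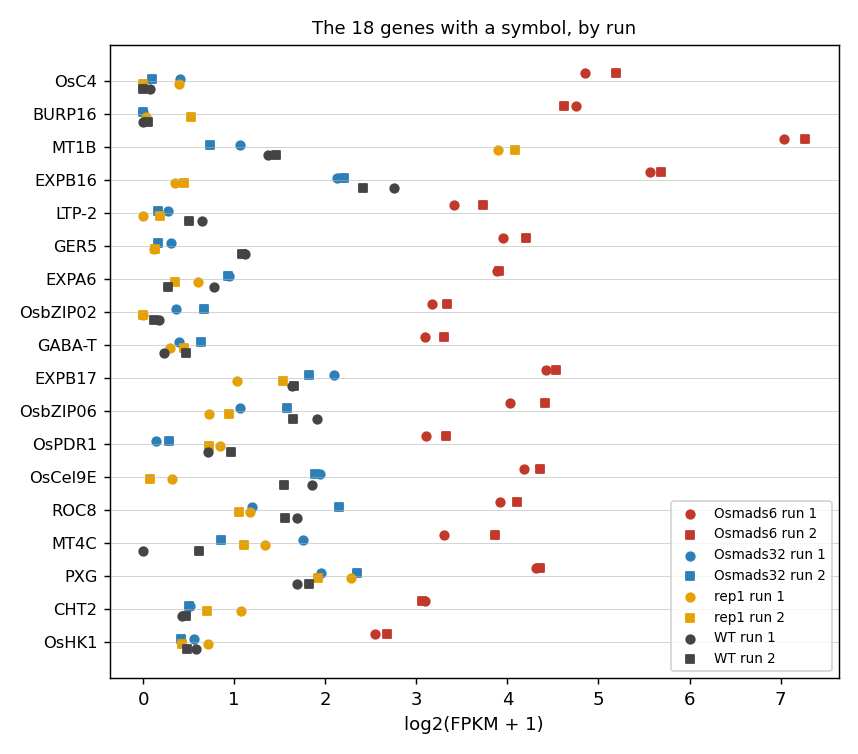
Levels of the 18 genes with a symbol in each run, as log2(FPKM + 1), with the largest gap at the top. Circles are run 1 and squares run 2; Osmads6 is red, Osmads32 blue, rep1 yellow and WT dark grey. In every gene both red points lie to the right of all others.

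Genes of lipid transfer and of the plant surface came next. LTP-2 (LOC_Os03g02050) encodes a non-specific lipid transfer protein, a small secreted protein that binds lipids. It had 9.68 and 12.3 FPKM in Osmads6, 0.205 and 0.120 in Osmads32, 0 and 0.137 in rep1, and 0.568 and 0.422 in WT. Osmads6 was above all others, the runs of Osmads32 and rep1 overlapped, and the Osmads6 mean was 22.2-fold that of WT. OsC4 (LOC_Os08g43240), a lipid transfer protein gene known from the tapetum of the anther, had 27.8 and 35.5 FPKM in Osmads6, 0.321 and 0.0727 in Osmads32, 0.315 and 0 in rep1, and 0.0576 and 0 in WT. Outside Osmads6 it was at 9 reads or fewer in every run. The anther and tapetum marker sum given above was lowest in Osmads6, but genes of that kind did not share 1 direction. Of 19 kept genes in a wider anther and tapetum list, Osmads6 was the highest library in 7, by at least 2-fold in 3, and the median gap was -0.61.

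PXG (LOC_Os04g43200) encodes a peroxygenase of the caleosin family, proteins of lipid droplets. It had 18.8 and 19.6 FPKM in Osmads6, 2.86 and 4.08 in Osmads32, 3.86 and 2.79 in rep1, and 2.22 and 2.54 in WT. The runs of Osmads32 and rep1 overlapped, and the Osmads6 mean was 5.54-fold that of Osmads32. OsPDR1 (LOC_Os08g43120), an ABC transporter gene of the pleiotropic drug resistance type, had 7.60 and 9.02 FPKM in Osmads6, 0.101 and 0.218 in Osmads32, 0.796 and 0.651 in rep1, and 0.636 and 0.953 in WT. Here Osmads32 was the lowest library, and the runs of rep1 and WT overlapped.

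ROC8 (LOC_Os06g10600) is a homeobox gene of the HD-ZIP IV family, whose members act in the epidermis. It had 14.1 and 16.2 FPKM in Osmads6, 1.29 and 3.43 in Osmads32, 1.26 and 1.07 in rep1, and 2.24 and 1.94 in WT. The Osmads32 runs lay on either side of WT, and the Osmads6 mean was 6.42-fold that of Osmads32. Of a list of 7 checked ROC genes it was the only one among the 190. A gap of at least 1 was found in 5 of the 7, against 4.44% of all genes kept, and the median of the 7 was 1.23. The gap is the value that chose the 190, and the list was chosen with earlier results of these data known. These values are thus a description and not an enrichment.

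The other ROC genes fell short of the threshold. ROC2 (LOC_Os04g53540) had 31.7 and 31.6 FPKM in Osmads6, 8.65 and 10.7 in Osmads32, 8.83 and 8.01 in rep1, and 8.64 and 8.70 in WT, for a gap of 1.62. ROC6 (LOC_Os09g35760) had 45.9 and 49.4 FPKM in Osmads6, 11.8 and 14.2 in Osmads32, 10.6 and 9.91 in rep1, and 16.91 and 14.4 in WT, for a gap of 1.55. In both, the 2 Osmads6 runs were at least 2-fold above every other run. ROC3 and ROC5 had gaps of 1.225 and 1.204, ROC1 0.58 and ROC4 -0.03. Osmads6 was thus the highest library in 6 of the 7, by amounts that differed between the genes. The level of ROC4 was 2.60 FPKM in Osmads6, 2.68 in Osmads32, 2.55 in rep1 and 2.16 in WT.

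**Figure D5:**
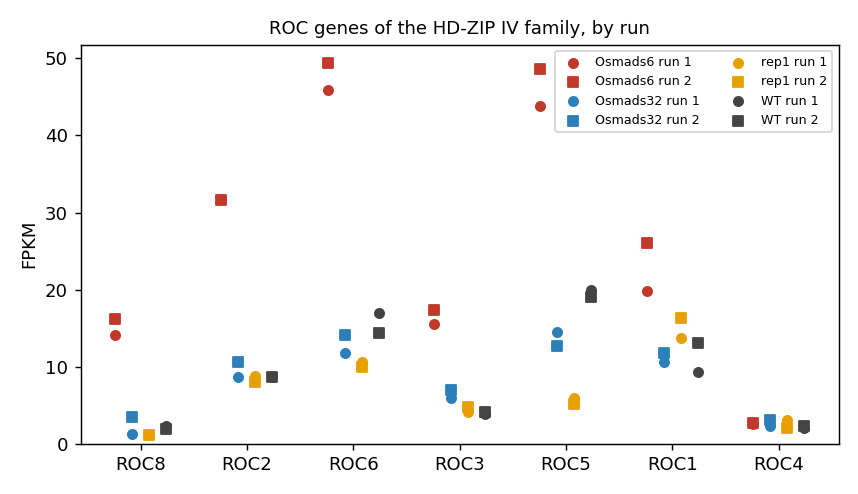
FPKM of 7 ROC genes of the HD-ZIP IV family in each run, with the largest gap at the left. Circles are run 1 and squares run 2; Osmads6 is red, Osmads32 blue, rep1 yellow and WT dark grey. In every gene except ROC4 both red points lie above all others.

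Genes linked to defence and metal binding were another group by role, also paired after the list was seen. A separate defence list had 17 genes kept, none among the 190 and 0 with a gap of at least 1. The shares over all genes kept were 0.919% and 4.44%. The median gap of the list was -0.47, beside -0.20 over all genes kept. GER5 (LOC_Os08g35760), a germin-like gene whose products are secreted to the wall and linked to disease resistance, had 14.5 and 17.5 FPKM in Osmads6, 0.237 and 0.121 in Osmads32, 0.0873 and 0.0922 in rep1, and 1.18 and 1.12 in WT. Its WT runs were above those of Osmads32 and rep1, and the Osmads6 mean was 13.9-fold that of WT. CHT2 (LOC_Os05g33130), a chitinase gene, had 7.52 and 7.35 FPKM in Osmads6, 0.429 and 0.419 in Osmads32, 1.11 and 0.626 in rep1, and 0.346 and 0.386 in WT. In this gene rep1 was the highest of the other libraries, and the Osmads6 mean was 8.58-fold that of rep1.

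Metallothioneins are small cysteine-rich proteins that bind metals. MT1B (LOC_Os03g17870) had 130.4 and 154 FPKM in Osmads6, 1.09 and 0.664 in Osmads32, 13.9 and 15.99 in rep1, and 1.58 and 1.76 in WT. Rep1 was well above Osmads32 and WT here, against the order most common among the 190, and the Osmads6 mean was 9.49-fold that of rep1. MT4C (LOC_Os12g38300) had 8.85 and 13.6 FPKM in Osmads6, 2.38 and 0.808 in Osmads32, 1.53 and 1.16 in rep1, and 0 and 0.535 in WT. These values rest on few reads, 38 and 64 in the Osmads6 runs and 12 or fewer elsewhere. The expansin, ROC and metallothionein families hold close paralogs, and reads assigned to the wrong copy would change these values.

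Genes of metabolism and signalling completed the 18. GABA-T (LOC_Os02g02210), which encodes a transaminase that breaks down gamma-aminobutyric acid, had 7.57 and 8.91 FPKM in Osmads6, 0.316 and 0.557 in Osmads32, 0.223 and 0.370 in rep1, and 0.174 and 0.389 in WT. OsHK1 (LOC_Os06g44410), a histidine kinase gene known from the ethylene response of roots, had 4.86 and 5.41 FPKM in Osmads6, 0.472 and 0.337 in Osmads32, 0.643 and 0.340 in rep1, and 0.495 and 0.397 in WT. In both genes the runs of the other 3 libraries overlapped. OsHK1 had the lowest Osmads6 level of the 18 and the smallest gap, at 2.04.

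Both bZIP transcription factor genes among the 18 were low outside Osmads6. OsbZIP02 (LOC_Os01g11350) had 8.01 and 9.10 FPKM in Osmads6, 0.289 and 0.588 in Osmads32, 0 and 0 in rep1, and 0.129 and 0.0866 in WT. OsbZIP06 (LOC_Os01g55150) had 15.3 and 20.4 FPKM in Osmads6, 1.08 and 2.00 in Osmads32, 0.646 and 0.926 in rep1, and 2.76 and 2.14 in WT. In both, rep1 was the lowest library, and OsbZIP06 had the wider spread between the Osmads6 runs.

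The largest gaps belonged to genes that could not be named. LOC_Os08g08960 had 317 and 315 FPKM in Osmads6, 0.235 and 0.527 in Osmads32, 0.0520 and 0.330 in rep1, and 0.0380 and 0.169 in WT, for a gap of 7.84. This was the largest gap of the 190. The next locus number on chromosome 8 is also among the 190, with a mean of 809 FPKM in Osmads6, 6.51 in Osmads32, 105 in rep1 and 12.3 in WT. LOC_Os01g37000 had 419 and 399.7 FPKM in Osmads6, 0 and 0.249 in Osmads32, 4.15 and 4.28 in rep1, and 0.0123 and 0.137 in WT, for a gap of 6.30. In LOC_Os01g37000 and in the neighbour on chromosome 8, rep1 was the highest of the other 3 libraries.

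The genes lay on all 12 chromosomes, from 0.437% of the genes kept on chromosome 9 (5 of 1144) to 1.16% on chromosome 4 (21 of 1818). Another of the 190 within 5 locus numbers was found for 12 of them (6.32%), in 6 pairs. The same share was 3.23% of the 62 genes lowest in Osmads6 by 4-fold, 11.7% of the 128 highest in rep1 and 10.05% of the 209 lowest in rep1. Since these lists differ in size, the shares are given side by side only. Most of the 190 were thus single loci and not runs of neighbouring genes.

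Genes of the pathway lists were about as frequent among the 190 as other genes. Of 345 kept genes in 28 lists of rice genes, 4 (1.16%) were among them, close to the 0.919% of all genes kept, and 25 lists had none. The 4 were not spread evenly: 2 of them, LOC_Os08g08960 and its neighbour, came from a list of 10 nearby loci on chromosome 8 whose symbols did not pass the check. Of these 10 loci 5 were kept, and the other 3 kept loci had gaps of -1.91, -2.77 and -3.12. None of 25 listed MADS-box genes was among the 190. Osmads6 was the highest library in 3 of the 25, against 35.6% of all genes kept. The flavonoid, heat shock and nitrogen assimilation lists had median gaps of -2.24, -2.07 and -1.47, below the -0.20 of all genes kept. Above it were 5 lists. The epidermis and cuticle list had a median of 1.36, with 8 of 12 genes at a gap of at least 1. The grain and hull size list stood at 0.41, with 3 of 14, and the auxin list at 0.27, with 4 of 11. The aquaporin list stood at -0.01, with 2 of 14, and the SPL list at -0.05, with 0 of 12. Over all genes kept, 4.44% had such a gap. In the epidermis and cuticle list Osmads6 was the highest library in 9 of the 12, so its genes did not share 1 direction. As the lists were chosen with earlier results known, these shares are a description only.

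Several genes of these lists fell just outside the threshold. ACO1 (LOC_Os09g27820), an ethylene synthesis gene, had 159.9 and 166 FPKM in Osmads6, 36.5 and 35.3 in Osmads32, 8.36 and 9.46 in rep1, and 55.5 and 31.3 in WT, for a gap of 1.88. YAB5 (LOC_Os04g45330), a YABBY transcription factor gene of lateral organs, had 10.99 and 11.003 FPKM in Osmads6, 0.919 and 0.504 in Osmads32, 0.137 and 0 in rep1, and 2.41 and 2.23 in WT, for a gap of 1.85. In both, rep1 was the lowest library, as in most of the 190. EXPA5 (LOC_Os02g51040), an alpha-expansin gene, had 26.8 and 27.8 FPKM in Osmads6, 7.91 and 6.42 in Osmads32, 1.57 and 0.925 in rep1, and 4.28 and 1.69 in WT, for a gap of 1.79.

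The auxin efflux carrier genes PIN1B (LOC_Os02g50960) and PIN10A (LOC_Os01g45550) were similar in order. PIN1B had 61.2 and 64.1 FPKM in Osmads6, 17.1 and 18.3 in Osmads32, 8.27 and 7.64 in rep1, and 16.004 and 13.9 in WT, for a gap of 1.77. PIN10A had 29.4 and 30.3 FPKM in Osmads6, 9.72 and 8.75 in Osmads32, 2.55 and 3.09 in rep1, and 11.4 and 6.99 in WT, for a gap of 1.59. In both, rep1 was the lowest library. ABA8OX3 (LOC_Os09g28390), which encodes an enzyme that breaks down abscisic acid, had 21.6 and 22.1 FPKM in Osmads6, 2.43 and 2.45 in Osmads32, 3.07 and 3.13 in rep1, and 5.62 and 5.69 in WT, for a gap of 1.78. In this gene Osmads32 was the lowest.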

How the data were processed

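Paleas of 4 rice genotypes were measured, with 1 sample each. The authors' deposited table gives FPKM for 55986 genes in 8 columns, 2 per genotype, treated as runs of 1 sample and averaged. Build IRGSP 1.0 is named in the submitters' processing notes; aligner and counter are not given in the sources used. Since a deposited FPKM is a whole number of reads times a step, reads could be recovered within a tolerance of 0.02 for 44697 genes (99.96% of those above 0), up to a factor common to a gene. Depth is the total at which gene lengths came out whole within 0.03 bases for 94.9% of 17425 well-covered genes. The recovery and the rule were run on simulated data with counting error only and planted changes larger than the threshold. That run held no variation between plants or runs, so it does not show how the rule behaves on these data.

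Ratios are log2 of FPKM + 1, which understates differences of low genes; folds use mean FPKM with no pseudocount. With n = 1 there is no test and no p-value. The table does not name genes: symbols were paired with locus IDs from rice nomenclature and kept where the RefSeq gene table of assembly ASM3414082v1 places the symbol on that chromosome in matching order (360 of 508 pairs). The targeted genes and the marker and pathway lists were used whether or not their pairs passed. The 190 genes, the lists and the markers were chosen with earlier results of these data known. Named were the targeted genes, members with a checked symbol, the 2 unnamed members with the largest gap, and checked genes with a gap of 1.5 to 2.5. ROC1, ROC3, ROC4, ROC5, the neighbour on chromosome 8, LOC_Os07g22850 and the markers TDR, TIP2, RTS and DL were added after their values were seen. Alternatives were other pseudocounts, filters, median-ratio scaling and leaving out runs or libraries. Python 3.11.15, numpy 2.4.6 and pandas 2.3.3 were used.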

Additional observations from a re-analysis of the deposited data

How the results depend on the processing

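No paired analysis was possible because each genotype has 1 sample. Of 82 recomputed values, 68 stayed within 1.5 times the count reported, or within the spread between runs for medians, and 14 moved further. Only a median could be scored as reversed, by a change of sign beyond that spread, and 0 were. The median log2 ratio of Osmads32 to WT changed sign within it, from -0.004 to 0.07 without wild type run 1. Counts of genes with the Osmads6 runs apart nearly repeat the gene number, so they are not separate checks. With a pseudocount of 0.1 the rule gave 297 genes, all 297 with both Osmads6 runs above the others, a median gap of 2.63, Osmads32 the highest other library in 132, WT in 131 and rep1 in 34, and a median log2 ratio of rep1 to WT of -1.09. With a mean of at least 5 FPKM it gave 121 genes, 121 with the runs apart and 0 at the read floor. WT was then the highest other library in 62, Osmads32 in 49 and rep1 in 10, and the median rep1 ratio was -1.14. Without wild type run 1 that ratio was -0.43, and Osmads32 was the highest other library in 112 genes and WT in 68. Without wild type run 2 the counts were 75 for Osmads32 and 91 for WT. Which of Osmads32 and WT led thus depended on the settings. Median-ratio scaling shifted the rep1 ratio of all genes by 0.13 and left 175 genes, all among the 190, with a median rep1 ratio of -0.58. Leaving out 1 run gave 184 to 204 genes, of which 174 to 190 were among the 190. Left out after the data were seen, the WT library gave 276 genes, the Osmads32 library 242 and the rep1 library 217. The count rests on the labels of WT and Osmads6: with their columns exchanged, the rule gives 20 genes. Values below 1 FPKM often rest on few reads, though OsPDR1 had 140 and 188 reads in the WT runs at such a level. With n = 1 the spread between plants is unknown.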
